A study of Mus musculus with 14 samples.

Results

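The 8 genes described here, Malat1, Neat1, Gas5, Snhg1, Lncpint, Dnm3os, Mir22hg and Mir17hg, are well-known long non-coding RNA (lncRNA) genes, chosen by name. Acetylation of lysine 27 of histone H3 (H3K27ac) was measured by chromatin immunoprecipitation and sequencing in immortalised mouse embryo fibroblasts, and a single list of 122228 sites was used. A site was assigned to a gene if it overlapped the gene body or the 10 kb on either side. This gave 129 sites, of which 1 fell into the windows of both Malat1 and Neat1.

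The cells (iMEF) carried floxed Ash2l alleles (Ash2l fl/fl) together with Cre-ER, a recombinase that can be switched on. Endogenous Ash2l had been knocked out, in control and treated cells alike, and a lentivirally introduced human ASH2L with an FKBP tag took its place. Per the study's methods the work used a clonal line, so that all groups stand for 1 clone. There were 2 H3K27ac libraries from control cells without dTAG, titled WT in the labels although they too carried the tagged ASH2L, and 2 each after 30 min, 2 h, 4 h, 8 h and 16 h of dTAG, the compound that triggers degradation of the tagged protein. Input chromatin was sequenced once for control and once for 16 h. The list joins the sites of all these samples and holds positions only. It therefore gives no value per sample, the read depth behind a site is unknown, no replicate error exists for any value below, and no comparison between time points was made. Lists of sites that changed at a time point, which the study also names, were not analysed here. Fibroblast genes had sites, since 8 of 10 markers, such as Col1a1 and Vim, had the 5′ end inside a site and 10 of 10 had a site within 1 kb. Of 8 markers of epithelial, endothelial, blood and liver cells, such as Epcam and Pecam1, 0 had a site within 1 kb. Over all protein-coding genes, 36.5% had the 5′ end inside a site and 52.0% had a site within 1 kb.

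Long non-coding RNAs are transcribed by RNA polymerase II like mRNAs but encode no protein of note. Some act as RNAs themselves, whereas others mainly carry small nucleolar RNAs (snoRNAs), which guide chemical modification of ribosomal RNA, or microRNAs, which repress mRNAs. H3K27ac is found at active promoters and enhancers, usually on the nucleosomes that flank a transcription start site rather than at the start itself.

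The 5′ end, taken as the outermost end in the GENCODE annotation, lay inside a site for 5 of the 8 genes: Neat1, Gas5, Lncpint, Dnm3os and Mir17hg. Among all 53843 annotated genes the share was 20.1%, among the 9603 lncRNA genes 18.8%, and among 21755 protein-coding genes 36.5%. For Malat1, Snhg1 and Mir22hg the 5′ end fell in a gap between a pair of sites. These gaps measured 330 bp, 233 bp and 354 bp, and the nearest site was 145 bp, 26 bp and 70 bp away. The count of 5 depends on how sites and starts are defined. With sites less than 1 kb apart merged it was 8 of 8, and the shares rose to 24.1% of all genes, 21.2% of lncRNA genes and 44.6% of protein-coding genes. With any annotated transcript start it was also 8 of 8, compared with 26.0%, 20.5% and 50.2%, although the 8 genes have up to 20 distinct starts and the median lncRNA gene has 1. With RefSeq coordinates it was 4 of 8, since Mir17hg was then outside. The RefSeq start of Mir17hg lies within the microRNA cluster that this gene hosts, past several of its hairpins. Shares over all genes were not computed with RefSeq coordinates. All 8 genes had a site within 1 kb of the 5′ end, compared with 30.2% of all genes, 28.3% of lncRNA genes and 52.0% of protein-coding genes. The plot of sites around the 5′ ends shows both arrangements.

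**Figure D1:**
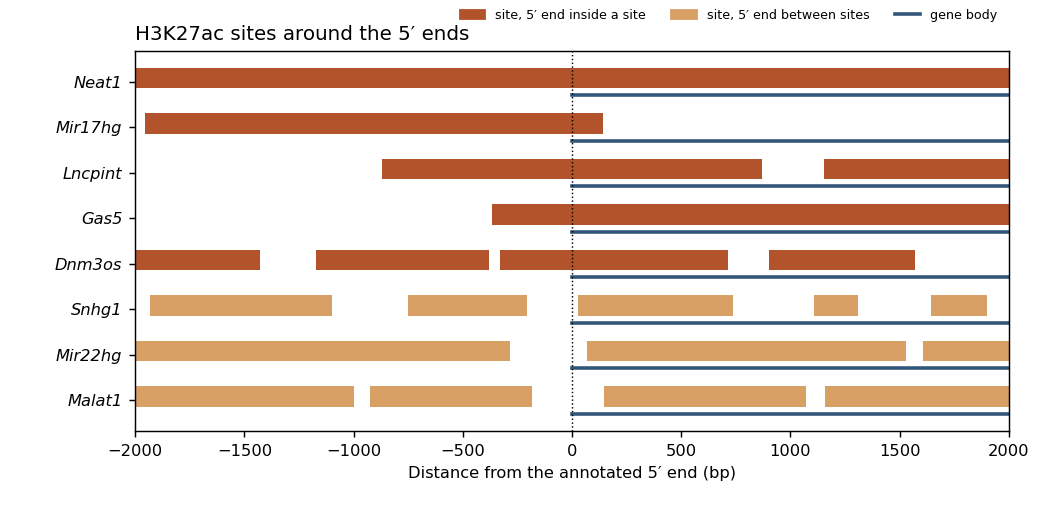
H3K27ac sites within 2000 bp on either side of the annotated 5′ ends of the 8 genes, with distance in bp on the x axis and 1 gene per row. Dark bars are sites at the 5 genes whose 5′ end lay inside a site, light bars are sites at the 3 genes whose 5′ end lay between sites, and blue lines are gene bodies.

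Cover of the gene body, the share of its bases inside sites, ranged from 3.74% at Mir17hg to 92.1% at Neat1, with a median of 49.9%. In order the values were 92.1% for Neat1, 77.3% for Mir22hg, 75.4% for Malat1, 58.2% for Gas5, 41.5% for Lncpint, 39.3% for Snhg1, 38.1% for Dnm3os and 3.74% for Mir17hg. The last gene stood far below the others. The median over all lncRNA genes was 0, as 61.4% of them had no base inside a site. Of the 1805 lncRNA genes with the 5′ end inside a site the median was 20.02%, with quartiles of 7.13% and 51.9%. Mir17hg was thus below the lower quartile of these genes, and Neat1, Mir22hg, Malat1 and Gas5 were above the upper one. Mir22hg and Malat1 are not themselves among the 1805, as their 5′ end lay between sites. The 1805 genes were of any length, and a site of a given width fills more of a short gene. The 5 genes with a covered 5′ end held both the highest and the lowest body cover.

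**Figure D2:**
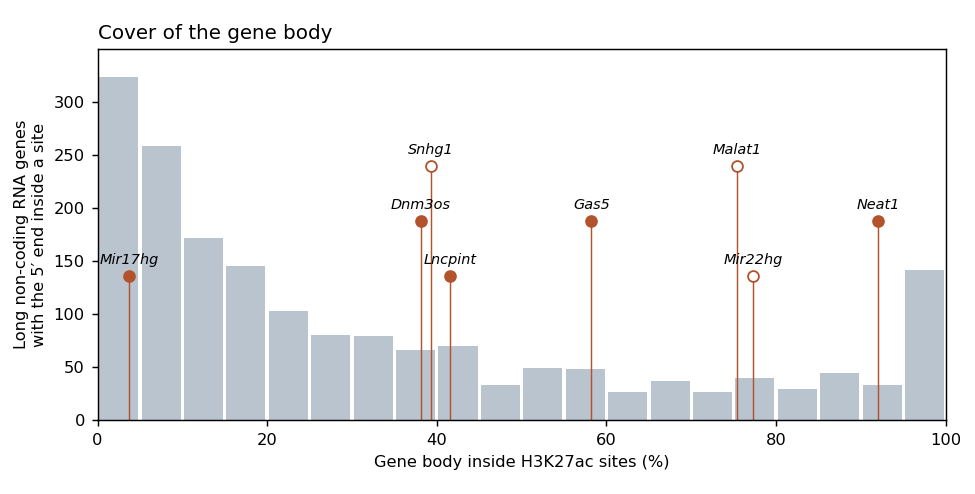
Share of the gene body inside H3K27ac sites (x axis, %) for the 1805 lncRNA genes whose 5′ end lay inside a site (grey bars, number of genes on the y axis in steps of 5%), with the 8 genes marked at their own values from 3.74% to 92.1%. Filled points are genes with the 5′ end inside a site and open points are Malat1, Snhg1 and Mir22hg, whose 5′ end lay between sites. The height of a point carries no value.

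The 129 sites had a median width of 724 bp, with quartiles of 333 and 1362 bp, whereas the median of the whole list was 401 bp with quartiles of 265 and 723 bp. Of the 129, 20 (15.5%) were wider than 2000 bp, compared with 4.32% of the list, and 7 had the minimum of 200 bp. The list as a whole also holds sites far from genes. Widths at other genes with a site near the 5′ end were not computed, so the difference cannot be called particular to these genes. Most of the 20 came from few loci. Lncpint held 9, Neat1 5 and Malat1 3, with the site shared by Malat1 and Neat1 counted for both. Gas5, Snhg1, Mir22hg and Mir17hg held 1 each. Median widths per gene were 1686 bp for Neat1, 1455 bp for Mir22hg, 1285 bp for Mir17hg, 886 bp for Gas5, 834 bp for Malat1, 544 bp for Snhg1, 520 bp for Dnm3os and 500 bp for Lncpint. These medians rest on unequal numbers of sites, from 2 at Mir17hg (471 and 2099 bp) and 4 at Gas5 to 59 at Lncpint. Lncpint had the widest site and the lowest median, while Dnm3os was the only gene of the 8 with no site over 2000 bp. In base composition the sites lay near the list as a whole, with a median GC content of 48.3% compared with 48.8%.

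**Figure D3:**
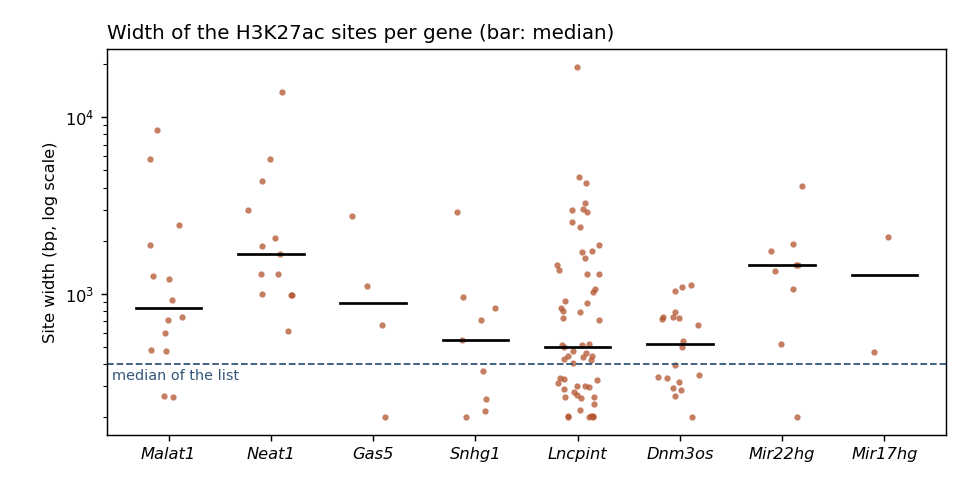
Width of each H3K27ac site in the window of each gene (points, bp on a log axis, spread sideways for legibility), with the median per gene as a black bar and the median of the whole list, 401 bp, as a dashed line. The site shared by Malat1 and Neat1 is drawn for both, and medians per gene run from 500 bp at Lncpint to 1686 bp at Neat1.

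Malat1 and Neat1 are neighbours on chromosome 19 and both lie on the minus strand. Malat1 RNA (ENSMUSG00000092341.3, chr19:5795690-5802672, mm10) is an abundant nuclear transcript found at nuclear speckles, and Neat1 RNA (ENSMUSG00000092274.3, chr19:5824708-5845478) is the scaffold of paraspeckles. The Neat1 window held 13 sites, 10 of which touched the body. Its 5′ end was inside a site of 13852 bp, the 13th widest of the list, which began 7864 bp upstream and ended 5987 bp into the gene. The 5′ end of Frmd8os, an antisense gene that starts 145 bp away on the other strand, lay in the same site. Divided into 10 equal segments, the Neat1 body was covered by at least 77.8% in each, and the longest stretch without a site measured 401 bp.

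The Malat1 window held 14 sites, 6 of them touching the body. Of the 1 kb upstream of its 5′ end 74.1% was covered, and of the 1 kb downstream 85.5%. Further upstream, a site of 8503 bp began 1000 bp from the 5′ end, and the site of 5820 bp next to it was the one shared with the Neat1 window. Between the bodies of both genes lay 22035 bp, of which 95.6% was covered by 6 sites. From the 3′ end of Malat1 to the 5′ end of Neat1, 49789 bp in all, cover was 91.3% and the longest gap 576 bp. On the other side cover was lower, with 52.7% in the 10 kb downstream of Malat1. In neither gene was any base intronic in all annotated transcripts, so that exon and body cover were the same.

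Gas5 and Snhg1 are hosts of snoRNAs, which are released from their introns. Gas5 (ENSMUSG00000053332.13, chr1:161034422-161038539, plus strand) was first described as a transcript that accumulates in growth-arrested cells. A single site of 2766 bp touched the body, from 368 bp upstream of the 5′ end to 2397 bp into the gene. Of 10 equal segments of the body the first 5 were covered completely, the 6th by 82.5% and the last 4 not at all. The same site held the 5′ end of Zbtb37, a protein-coding gene that starts 427 bp away on the opposite strand. Of the 10 snoRNA entries in the annotation of Gas5, 4 were wholly inside the site and 6 outside every site, including Snord78, Snord47 and both overlapping entries named Snord80. Of 20 distinct transcript starts, 15 lay inside the site, and many of these crowded between 741 and 766 bp from the outermost 5′ end, where RefSeq also has a start at 744 bp.

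Snhg1 (ENSMUSG00000108414.1, chr19:8723475-8726443, plus strand) had 9 sites in its window, 3 of which touched the body, with widths of 711 bp, 200 bp and 255 bp. The gap of 233 bp at its 5′ end also contained the 5′ end of Slc3a2, which encodes the heavy chain of amino acid transporters and starts 106 bp away on the opposite strand. Both genes of this divergent pair therefore began between the same 2 sites. Cover was highest at the start, with 91.2% in the first of 10 segments and 100% in the second, and was 0 in the last 3. Of the 8 snoRNA entries 1 was wholly inside a site, 3 partly and 4 outside. Gas5 and Snhg1 shared a CpG-rich 5′ end, meaning that the 1 kb around it had at least 50% GC and a ratio of observed to expected CpG of at least 0.6. The ratios were 0.807 for Gas5 and 0.960 for Snhg1. Mir22hg, with 0.657, was the other CpG-rich gene of the 8. Among lncRNA genes 14.2% had such a 5′ end, and of these 61.7% had it inside a site, compared with 11.7% of the others. At their outermost 5′ ends the 8 genes did not follow this order. Gas5 alone of the CpG-rich genes had its 5′ end inside a site, while those of Snhg1 and Mir22hg were 26 and 70 bp from one. Of the remaining genes Neat1, Lncpint, Dnm3os and Mir17hg had theirs inside and Malat1 did not. The class depends on the start chosen. At Lncpint the 1 kb around the outermost 5′ end had 58.7% GC and a ratio of 0.417. The 300 bases at its RefSeq start, 2014 bp into the gene and inside a site, had 58.7% and 0.698.

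Lncpint (ENSMUSG00000044471.12, chr6:31082565-31220488, minus strand), a transcript induced by the tumour suppressor p53, is the longest of the 8 genes at 137924 bp. All 59 sites in its window touched the body, and only 10 lncRNA genes had more sites in their windows. A site of 1738 bp covered the 5′ end, reaching 870 bp upstream and 867 bp downstream, and also held the 5′ end of 2210408F21Rik, 137 bp away on the opposite strand. The next site, of 3275 bp, held the RefSeq start 2014 bp into the gene. Then followed 22547 bp without a site. In 10 segments from the 5′ end, cover was 30.04%, 3.36%, 7.40%, 17.2% and 16.8% in the first 5 and 51.3%, 76.1%, 36.0%, 90.8% and 86.4% in the last 5. Of the 59 sites, 16 had their middle nearer to the 5′ end of the body and 43 nearer to the 3′ end. Cover was thus low behind the 5′ end and high toward the 3′ end. The widest site of all at these genes, of 19278 bp and the 5th widest of the list, lay over the 3′ end, with 1037 bp inside the body and the remainder beyond it. All of the 10 kb downstream was covered. Exons were covered by 71.6% and introns by 39.8%, but the exons are gathered near the covered ends of the gene. All covered exon bases lay in the sites of 1738 and 3275 bp or in sites at least 126807 bp from the 5′ end. The exons between 22637 and 81315 bp from the 5′ end had no base inside a site. Of the 372 lncRNA genes over 100 kb, 98.9% had a lower body cover than Lncpint, and their median was 0.591%.

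**Figure D4:**
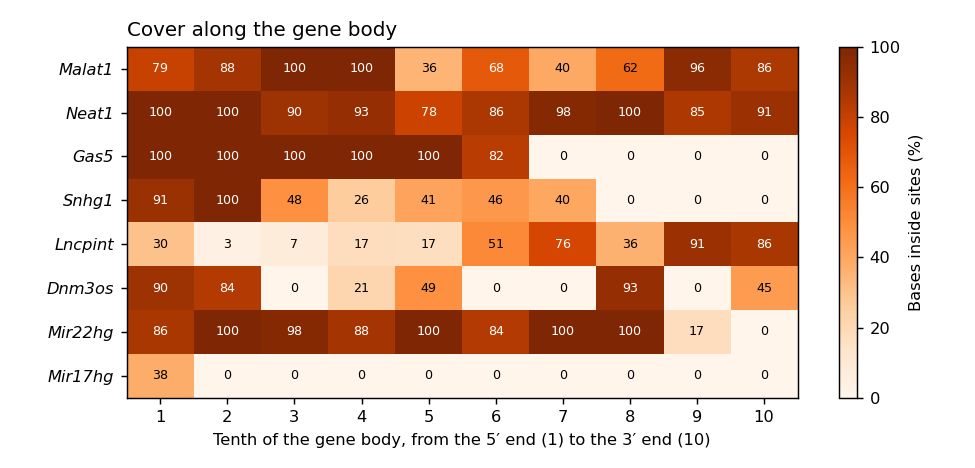
Share of bases inside H3K27ac sites in each of 10 equal segments of the gene body (columns, from the 5′ end at 1 to the 3′ end at 10) for the 8 genes (rows), as numbers and colour from 0 to 100%. Gas5, Snhg1 and Mir22hg have low or no cover in the last segments, whereas Lncpint has its highest value, 90.8%, in the 9th.

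Dnm3os, Mir22hg and Mir17hg are microRNA hosts. Dnm3os (ENSMUSG00000078190.7, chr1:162217623-162225550, plus strand) is transcribed from within Dnm3 on the opposite strand and is known from skeletal development. It had 20 sites in its window, 7 of which touched the body, and the widest measured 1121 bp. The site over the 5′ end was 1043 bp wide, with 331 bp upstream and 711 bp downstream. The hairpins of both of its microRNAs, Mir199a-2 and Mir214, were wholly inside sites, although cover alternated along the body between 0 in the 3rd, 6th, 7th and 9th of 10 segments and 92.7% in the 8th, which holds the site around Mir214.

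Mir22hg (ENSMUSG00000085148.1, chr11:75461539-75466676, plus strand) had 9 sites in its window. A site of 4073 bp ended 285 bp upstream of the 5′ end, and 3 sites of 1459 bp, 1058 bp and 1455 bp lined up along the body up to 4198 bp. A second transcript start of Mir22hg, 105 bp into the gene, was inside the first of these. So was the 5′ end of Tlcd2, a protein-coding gene that starts 176 bp downstream on the same strand. Tlcd2 (chr11:75461715-75470899) spans the rest of the Mir22hg body, and 74.7% of its own body was covered. Cover of the Mir22hg body can therefore not be told apart from cover of Tlcd2. The hairpin of Mir22 was wholly inside a site. Introns were covered by 95.1% and exons by 47.6%, as the last exon was mostly outside.

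Mir17hg (ENSMUSG00000089726.2, chr14:115042879-115046727, plus strand) carries the miR-17 to miR-92 cluster, which promotes proliferation and is a known target of MYC. At this gene the sites lay mostly upstream. Its window held 2 sites, of 471 bp and 2099 bp. The wider covered the 5′ end but reached 1955 bp upstream and only 143 bp into the gene, so that 100% of the 1 kb upstream and 14.4% of the 1 kb downstream was covered. With a GC content of 69.7% and a CpG ratio of 0.976, the site itself was CpG-rich, whereas the 1 kb around the annotated 5′ end had 42.7% and 0.333. The 6 microRNA hairpins were all outside, between 649 and 1405 bp from the site. The 10 kb downstream held no site.

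Mature microRNA sequences (RefSeq, GRCm38.p6) are shown for the hosts with covered hairpins and for the uncovered cluster. Capitals mark the seed, bases 2 to 8, with which a microRNA pairs to its targets. In the uncovered Mir17hg cluster, miR-17-5p and miR-20a-5p share the seed AAAGUGC, and miR-19a-3p and miR-19b-3p share GUGCAAA:
miR-17-5p: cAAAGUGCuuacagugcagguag
miR-20a-5p: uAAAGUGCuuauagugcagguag
miR-19a-3p: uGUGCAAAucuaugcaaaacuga
miR-19b-3p: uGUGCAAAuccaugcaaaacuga
miR-18a-5p: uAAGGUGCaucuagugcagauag
miR-92a-3p: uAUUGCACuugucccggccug
In Dnm3os and Mir22hg, whose hairpins were inside sites, no seed was shared:
miR-199a-5p: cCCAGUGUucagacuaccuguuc
miR-199a-3p: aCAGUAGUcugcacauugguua
miR-214-3p: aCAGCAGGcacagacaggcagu
miR-22-3p: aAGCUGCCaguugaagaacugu
Among all mature sequences of the 3 hosts, shared seeds were found in the Mir17hg cluster only. That cluster has 6 hairpins, whereas Dnm3os has 2 and Mir22hg 1, so the hosts had unequal room for shared seeds. A link between seeds and cover was not tested.

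**Figure D5:**
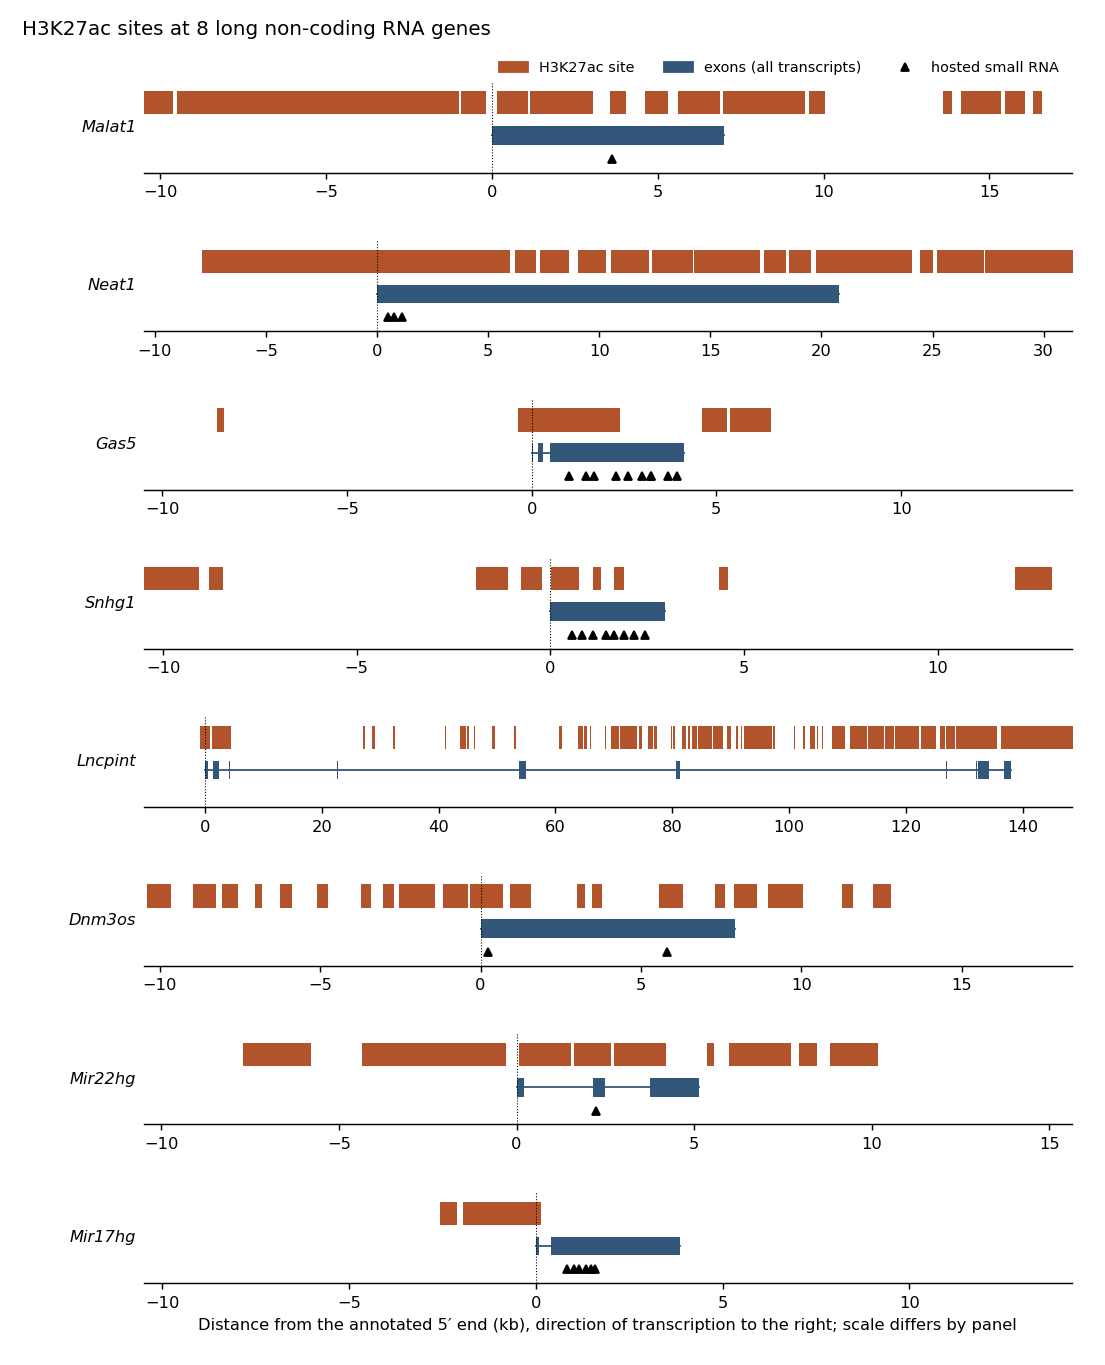
Position of the H3K27ac sites (orange), annotated exons of all transcripts (blue boxes, on a line for the gene body) and hosted small RNAs (triangles) at the 8 genes, by distance from the 5′ end in kb, each panel on its own scale and running 10 kb beyond the gene. Sites fill the Neat1 body, gather toward the 3′ end of Lncpint and lie upstream of Mir17hg.

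Sequences at the starts are shown for both arrangements. The windows are from RefSeq (GRCm38.p6), span 250 bases upstream and 50 downstream of a RefSeq start, and were found for all genes but Neat1. Motifs were searched on both strands and are printed in capitals, and no match in these windows overlaps another. The E-box, CACGTG, was present in 7.15% of the 32851 windows of the RefSeq table. The cyclic AMP response element, spelled TGACGTCA, was present in 1.79%. The AP-1 site was searched as TGACTCA and was present in 5.20%. For the TATA box, TATAAA, the share was 13.6%. For the GC box, spelled GGGCGG, it was 35.7%. The CCAAT box was present in 37.4%. Where starts lay between sites, the Mir22hg window (chr11:75461289-75461588) had 300 of 300 bases outside sites and the Malat1 window (chr19:5802623-5802922, minus strand) 235. The Snhg1 window is printed without the part that is exon of Slc3a2 (chr19:8723370-8723536), with 36 of 167 bases inside a site:
Mir22hg: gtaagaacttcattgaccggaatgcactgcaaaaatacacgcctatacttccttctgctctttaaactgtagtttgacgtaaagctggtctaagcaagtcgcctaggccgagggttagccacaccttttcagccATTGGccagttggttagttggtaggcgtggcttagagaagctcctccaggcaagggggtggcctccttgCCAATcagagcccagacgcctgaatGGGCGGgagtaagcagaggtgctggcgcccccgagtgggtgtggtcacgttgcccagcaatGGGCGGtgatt
Malat1: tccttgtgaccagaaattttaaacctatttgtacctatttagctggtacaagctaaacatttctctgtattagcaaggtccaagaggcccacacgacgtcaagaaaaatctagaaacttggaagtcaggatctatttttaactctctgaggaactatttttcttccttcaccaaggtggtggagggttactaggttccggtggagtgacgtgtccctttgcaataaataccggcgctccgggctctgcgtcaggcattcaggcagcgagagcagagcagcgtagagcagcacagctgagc
Snhg1: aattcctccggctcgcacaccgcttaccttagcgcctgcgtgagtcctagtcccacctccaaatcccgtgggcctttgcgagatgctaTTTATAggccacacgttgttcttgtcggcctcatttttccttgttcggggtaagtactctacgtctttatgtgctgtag
Mir22hg had GC boxes 22 bp upstream and 39 bp downstream of the start and CCAAT boxes 47 and 116 bp upstream, the second on the opposite strand. Malat1 had no match. Snhg1 had a TATA box on the opposite strand, 29 bp upstream, and in the part not printed a GC box 137 bp upstream.

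Where starts lay inside sites, the second Gas5 window (chr1:161034916-161035215) and the Lncpint window (chr6:31218425-31218724, minus strand) had all 300 bases in a site:
Gas5: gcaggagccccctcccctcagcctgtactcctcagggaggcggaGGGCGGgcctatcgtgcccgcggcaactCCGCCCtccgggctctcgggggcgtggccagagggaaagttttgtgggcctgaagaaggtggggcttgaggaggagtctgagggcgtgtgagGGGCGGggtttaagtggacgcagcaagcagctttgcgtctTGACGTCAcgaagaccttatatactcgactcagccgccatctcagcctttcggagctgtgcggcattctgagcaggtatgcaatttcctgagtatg
Lncpint: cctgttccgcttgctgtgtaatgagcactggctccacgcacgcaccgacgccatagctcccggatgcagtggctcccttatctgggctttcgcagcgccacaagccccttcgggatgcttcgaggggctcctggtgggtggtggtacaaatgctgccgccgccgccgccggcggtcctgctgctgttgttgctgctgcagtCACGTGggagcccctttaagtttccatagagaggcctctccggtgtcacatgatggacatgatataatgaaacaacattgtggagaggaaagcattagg
Gas5 held a cyclic AMP response element 46 bp upstream of the start and 3 GC boxes, 1 of them on the opposite strand, and Lncpint an E-box 49 bp upstream. The first Gas5 window, not printed, held 5 GC boxes. The windows of Dnm3os and Mir17hg had no match. The RefSeq start of Mir17hg lies 1511 bp into the GENCODE gene, within the Mir19b-1 hairpin, and outside every site. Its window contains the whole hairpins of Mir20a and Mir19b-1. It does not reach the GENCODE 5′ end of Mir17hg, where motifs were not searched.

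Of 53 other well-known lncRNA genes listed by class, 50 were found in the annotation. Their 5′ end was inside a site for 23, and 34 had a site within 1 kb. Over all lncRNA genes these shares were 18.8% and 28.3%, and over all annotated genes 20.1% and 30.2%. Among 14 snoRNA hosts found, 7 had the 5′ end inside and 12 a site within 1 kb, and the median body cover was 66.8%. Gas5 with 58.2% and Snhg1 with 39.3% were below this median, and Zfas1 with 90.1% and Snhg18 with 94.7% were above both. Among 12 microRNA hosts found, 4 had the 5′ end inside a site and 5 had no cover at all, and the median of 3.12% lay near the 3.74% of Mir17hg and below the 38.1% of Dnm3os and the 77.3% of Mir22hg. Of these 12, Carmn had a cover of 85.2%, above Mir22hg, and Mir100hg had 24.3%, while the others were below 10%. Of the 24 further genes, 12 had the 5′ end inside and 7 had no cover. Pvt1, with 227 sites and a cover of 50.8%, was richer in sites than Lncpint, whereas H19, Meg3 and Hotair had 0 sites in their windows.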

How the data were processed

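H3K27ac ChIP-seq was carried out in 12 libraries, with 2 input libraries. Per the study's methods and the labels, reads were aligned with BWA to mm10, replicates were merged and narrow peaks were called with MACS, whose version and threshold are not given in the sources used here. The file used, as the authors deposited it, holds positions in bp (chromosome, start and end) of the peaks joined over all samples, with no count or score. Joining can make a site wider than in any sample.

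Starts were read as counted from 0, since the narrowest sites then measured 200 bp, and are printed counted from 1. The sites were set against GENCODE M21 and RefSeq GRCm38.p6, the same build, with 0 sites past a chromosome end. TEC entries were left out of the lncRNA genes. Genes of the 53-gene list were matched by symbol or RefSeq synonym. The overlap code was tested on 2000 simulated windows with 0 mismatches. Python 3.11.15, numpy 2.4.6, pandas 2.3.3 and matplotlib 3.10.9 were used. No test was made, because the file used has no value per sample. All 8 members were named, whatever their values. Members and lists were chosen with earlier results of these data known.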

Additional observations from a re-analysis of the deposited data

How the results depend on the processing

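The 5 summary values were recomputed in 28 alternatives, of which 2, without Lncpint, were added after seeing the data. All 8 genes kept a site within 1 kb in each of the alternatives run for it, with 500 bp and 2 kb included. Only the 500 bp window and the list without its narrowest 25% could have lowered this count. A wider window, merged sites or added starts can only keep or raise it. Shares over all genes were not computed for 500 bp or 2 kb. Merging sites less than 1 kb apart gave 36 sites with a median width of 2098 bp (891 bp in the list), 8 of 8 5′ ends inside a site and a median body cover of 61.1%, since gaps between neighbours are closed. The median cover of lncRNA genes with the 5′ end inside a merged site was 21.97%. Counting any annotated transcript start also gave 8 of 8. RefSeq coordinates gave 4, with Mir17hg outside and at 0 cover, and a median cover of 48.7%. The RefSeq entry of Mir17hg starts within its microRNA cluster and leaves out the GENCODE 5′ end. Median cover was 50.9% over exons only and 49.0% without the narrowest 25% of the list. Median width was 727 bp for windows of 5 kb, 732.5 bp for gene bodies alone, 713 bp by the middle of a site, 834 bp without the narrowest 25% (521 bp in the list), 725 bp with starts counted from 1, and 766.5 bp for the 70 sites of the genes other than Lncpint. No paired analysis was possible because positions alone were used. The read depth is unknown, and a gap between sites cannot be told apart from signal below the peak threshold.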

Other observations

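Beyond the 3′ end of Lncpint, the sites continued to the hairpins of Mir29a and Mir29b-1, microRNAs of the same strand known to repress collagen mRNAs. The hairpins lie at chr6:31062660-31062747 and chr6:31063023-31063093 (mm10), which is 19818 and 19472 bp from the annotated 3′ end of Lncpint. Both were wholly inside a site of 2457 bp, separated by 471 bp from the site of 19278 bp over the 3′ end. These positions were looked up after the site over the 3′ end had been seen.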
